A study of Mus musculus with 12 samples.

Results

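Genes that changed in Ern1fl/fl macrophages after 2 h with antibody-coated platelets were measured in 6 of the 12 RNA sequencing libraries of the series. The 6 were taken by genotype and treatment alone, 3 labelled Blank_WT and 3 labelled R300_WT, and no expression value entered the choice. WT stands for Ern1fl/fl, cells whose Ern1 gene carries loxP sites, and the labels do not say whether these mice also carried a Cre transgene. The cells were peritoneal macrophages of 8-week-old male mice, collected 3 days after 3% Brewer thioglycolate, an irritant that draws monocytes into the peritoneum, had been injected there. In the R300 group they were held with platelets that had been opsonised, that is covered with antibody, using R300, which binds the platelet protein CD42. For the blank group the labels give the treatment as Con, with no time and no word on whether uncoated platelets were added, so antibody, platelets and time in culture cannot be told apart. The other 6 libraries, labelled Mac-Ern1KO and called KO, are macrophages deleted for Ern1 per the labels, with a Cre driver that is not named. They lend their replicate spread to the fit and appear by value only at the end. The 3 libraries of a group are given as biological replicates, without naming mice or pools of mice.

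Macrophages bind antibody-coated platelets through Fc gamma receptors, whose signals through the kinase Syk rebuild the actin skeleton, close the phagosome and pass it to lysosomes. In immune thrombocytopenia this uptake removes platelets from the blood. A second route by which a macrophage reads its surroundings is cyclic AMP, made by adenylyl cyclases under receptors for prostaglandins, adenosine and other ligands. Cyclic AMP frees protein kinase A to phosphorylate CREB, a factor that binds the cyclic AMP response element of promoters, and the orphan nuclear receptors of the NR4A family and the repressor gene Crem are among the fastest genes to respond to it. The question of the comparison is which genes respond to coated platelets in macrophages that still express Ern1, the gene of the endoplasmic reticulum (ER) stress sensor IRE1α that the title of the series is about.

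The 6 libraries held 21765586 to 38366895 counts, and the defining macrophage genes Lyz2, Csf1r, Adgre1 and Cd68 were present in each (Csf1r at 1591 to 2121 CPM, counts scaled to the size of the library). Although the labels give male mice, Xist, the RNA of X inactivation in female cells, was at 143 to 431 CPM in 4 of the 6 libraries. Blank 3 and R300 2 held at most 0.0742 CPM. The summed Y-linked transcripts ran from 69.5 to 162 CPM in those 4 and from 213 to 224 CPM in the other 2, so the former hold both kinds of transcript. R300 1 and R300 3 were nearly alike: the median chi-square of a gene was 1.38 between them and 6.14 to 8.17 between the other pairs of a group. They differed beyond sampling noise and were counted as 2 libraries. Results are therefore also given with presence of Xist as a batch term in the fit, in the 8 Xist-positive libraries of the series alone, and without each library in turn. Because p-values rest on 3 libraries a group, and R300 1 and R300 3 are nearly alike, they may understate the spread between mice.

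Coated platelets went with a short list of mostly rising genes. Of 16546 genes tested with edgeR, 103 passed a Benjamini-Hochberg adjusted p of 0.05 (0.623% of those tested), 91 of them higher (0.55%) and 12 lower (0.0725%) with R300. Of these, 70 differed at least 2-fold, 64 higher and 6 lower, and 28 were at least 4-fold higher. The smallest called rise was 1.31-fold (Stx12, a syntaxin of endosomes) and the weakest called fall left Dse, an epimerase of dermatan sulfate, at 0.744 of its blank level. The R300 and blank libraries did not overlap for any of the 103 genes, while 12.8% of all genes tested did not overlap. An unadjusted p under 0.05 was found for 8.72% of all genes. Without regard to the test, 49.1% of all genes lay above 0 and their median log2 fold change was -0.0047.

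**Figure D1:**
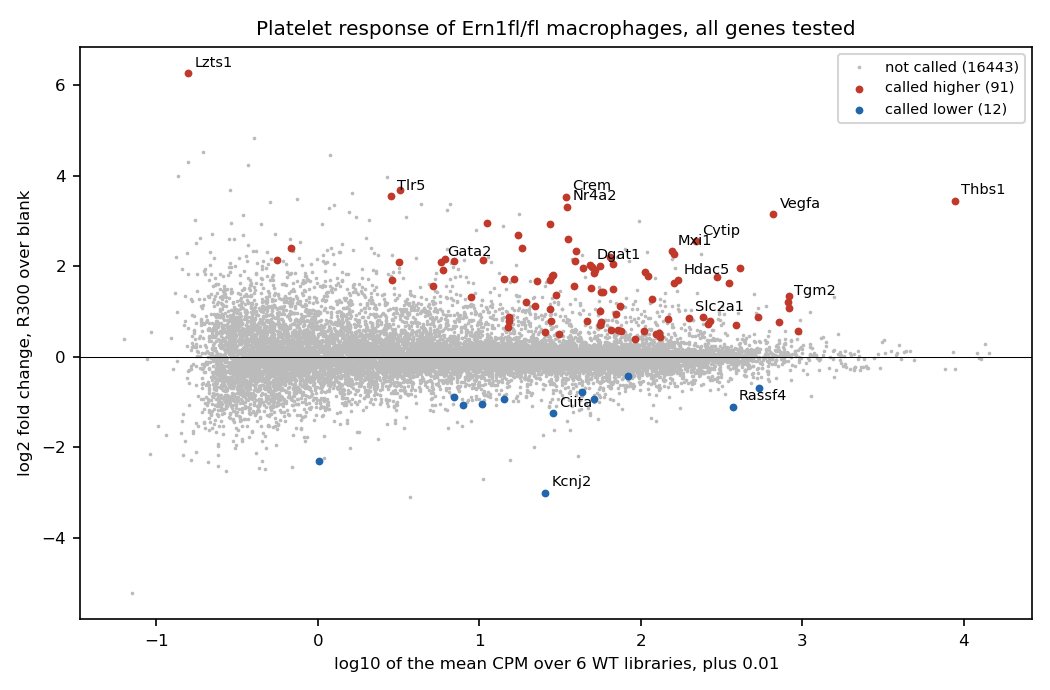
Fitted log2 fold change of R300 over blank (y axis) against the log10 of the mean CPM of the 6 WT libraries plus 0.01 (x axis), 1 point per gene tested with the called genes in colour and grey points for the rest. The 91 called higher genes reach from low counts up to Thbs1, and 12 genes lie on the lower side.

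Calls are those of edgeR in the 12 libraries unless another fit is named. How many genes passed depended on the fit and on single libraries. The batch term for presence of Xist called 347 genes (2.1% of those tested, 275 higher and 72 lower), and all 103 were among them. DESeq2 called 363 (2.19%, 265 higher and 98 lower), so that 73.0% of its calls were higher against 88.3% of the 103. Of the 103 it called 102, and it gave Lzts1 no adjusted p. In the Xist-positive libraries alone 76 of the 103 were called again. In a fit of the 6 WT libraries without the KO libraries 41 genes were called, 38 of them among the 103. Leaving out blank 1, 2 or 3 left 33, 45 and 56 calls, and leaving out R300 1 or R300 3 left 32 each. Leaving out R300 2 raised the number to 135. That fit and the fit of the Xist-positive libraries keep only R300 1 and R300 3, the nearly alike pair, as the WT R300 group. The batch term can take up how R300 2 differs from that pair. The p-values of these fits may therefore also understate the spread between mice. A set of 30 genes, 29 higher and 1 lower, passed in each of the 6 fits that leave out 1 library. R300 1 and R300 3 are nearly alike, so a fit without 1 of them keeps the other. Calls that held without any 1 library, here and below, were therefore not tested without what that pair shares. R300 2 was the lowest R300 library for 56 of the 91 risen genes and the highest for 29.

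**Figure D2:**
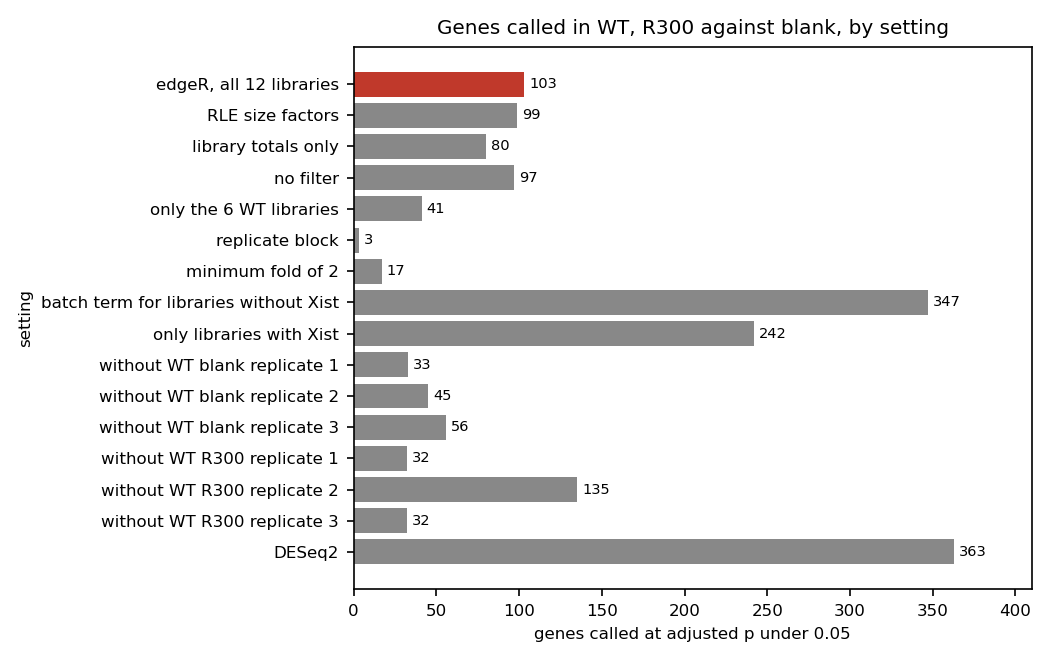
Number of genes called at an adjusted p under 0.05 (x axis) in each setting (y axis), with the reported fit in red and the other settings in grey. The count runs from 3 with the replicate number as a block to 363 with DESeq2, with 103 in the reported fit.

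**Figure D3:**
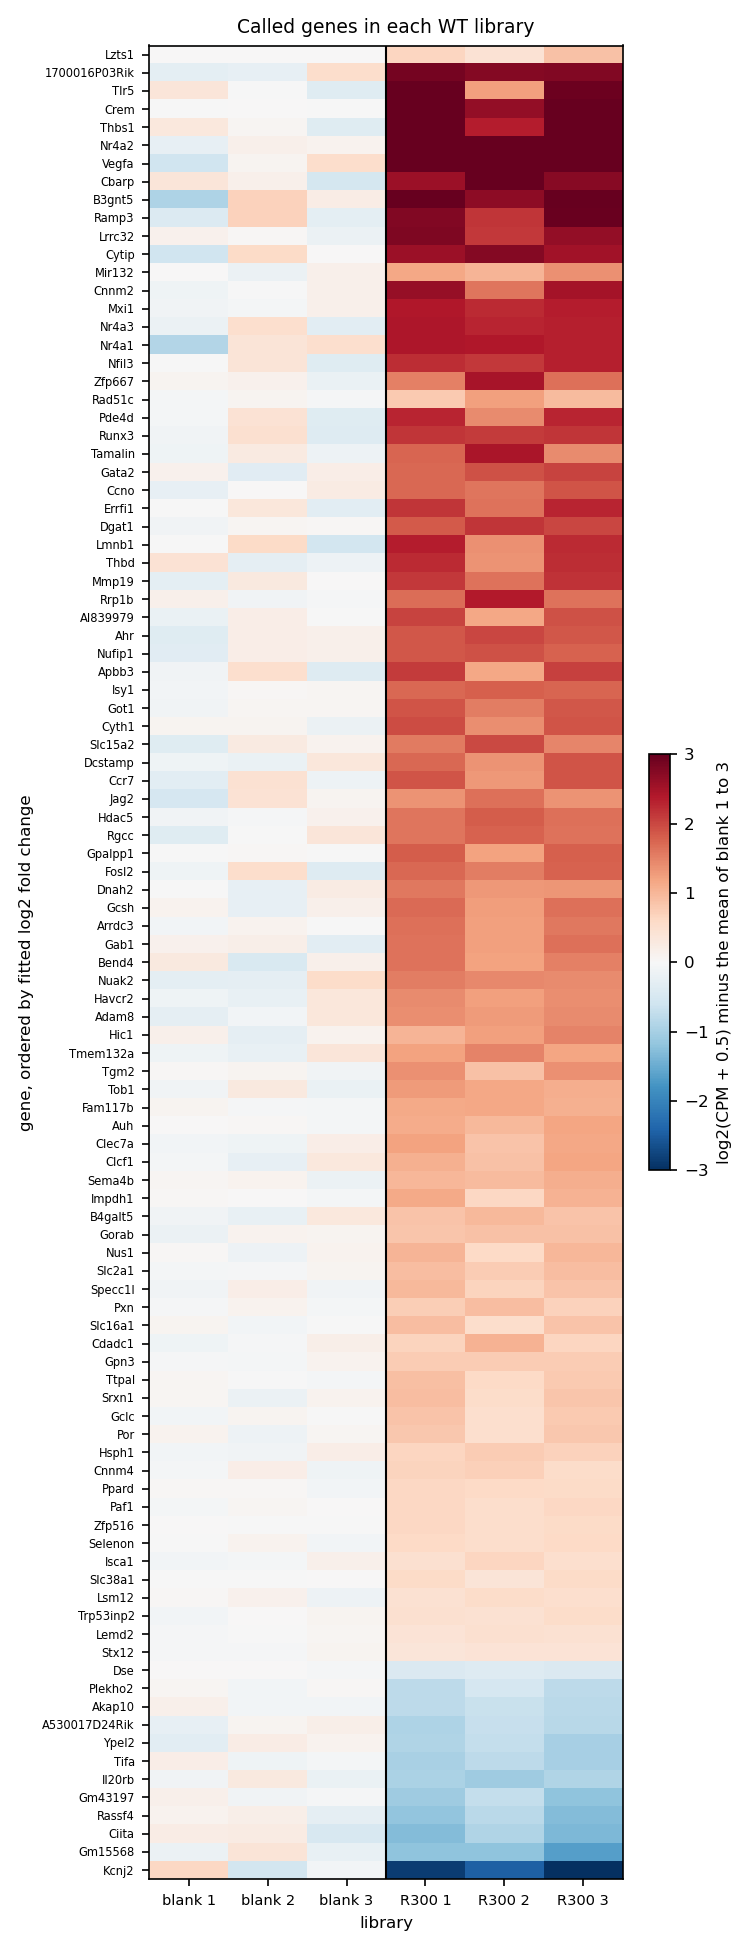
Called genes except 2 (rows, ordered by fitted fold change) in the 6 WT libraries (columns), as log2(CPM + 0.5) minus the mean of the 3 blank libraries, with colours capped at -3 and 3. The rows from Tlr5 to Pde4d include many that are paler in R300 2 than in R300 1 and 3, while the 12 rows at the bottom are blue in all 3 R300 libraries.

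Among the gene lists, that of genes known to be induced by cyclic AMP held the most risen genes. Of 29 tested members of this list, 10 rose and none fell (0.55% of all genes rose), and 27 lay above 0, with a median log2 fold change of 1.96 where the median of all genes was -0.0047. By log2 ratios of CPM plus 0.5, the median was 1.51 in the libraries with Xist (-0.0082 for all genes). Between R300 2 and blank 3, the pair without it, the median was 1.54 (0.0051 for all genes). These are not fitted values and cannot be set against the 1.96. The risen members were the 3 NR4A receptors Nr4a1, Nr4a2 and Nr4a3, the repressor Crem, the AP-1 subunit Fosl2, the phosphodiesterase Pde4d, the receptor accessory protein Ramp3, the microRNA gene Mir132, Vegfa and Thbs1. The list was put together with earlier results of these libraries known, so its count describes them and is no separate evidence. A separate list held receptors, cyclases, protein kinase A subunits and CREB factors of cyclic AMP signalling. Of its 30 tested members edgeR called 0, near the 0.623% of all genes. An unadjusted p under 0.05 was found for 5 of them (8.72% of all genes), and DESeq2 called 2 higher and 1 lower. Their median log2 fold change was 0.004.

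Nr4a2, an orphan nuclear receptor that binds DNA without a known natural ligand, measured 5.19, 6.98 and 6.75 CPM in the blank and 54.98, 79.2 and 54.97 CPM in the R300 libraries. The 3 R300 libraries lay far above the 3 blank libraries, with R300 2 the highest, and the rise was 9.96-fold (log2 3.32, SE 0.22, adjusted p = 0.000103). Its relative Nr4a3 measured 11.2, 17.99 and 10.01 CPM in blank 1 to 3 and 69.96, 63.2 and 65.8 CPM in R300 1 to 3. The R300 libraries spanned a narrow range and none came near a blank library, a rise of 5.06-fold (log2 2.34, SE 0.26, adjusted p = 0.00177). Nr4a1, also called Nur77, measured 27.2, 65.7 and 71.1 CPM in the blank and 272, 268 and 257 CPM in the R300 libraries. Blank 1 was the lowest library and the 3 R300 libraries were close together, a rise of 4.85-fold (log2 2.28, SE 0.37, adjusted p = 0.0222). The calls of Nr4a2 and Nr4a3 held without any 1 library. The call of Nr4a1 was lost without blank 2, R300 1 or R300 3 (adjusted p 0.0712 to 0.0900). Nr4a1 is also on the list of recruited and patrolling monocyte markers, where it was the 1 of 19 tested that lay above 0. The median log2 fold change of that list was -0.40, but 0.02 without blank 2 and 0.04 between R300 2 and blank 3, and DESeq2 called 1 member lower.

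Crem, whose short inducible form represses promoters that CREB activates, measured 5.36, 5.55 and 5.45 CPM in blank 1 to 3 and 76.1, 36.3 and 77.7 CPM in R300 1 to 3. The blank libraries were almost equal, and R300 2 stood below R300 1 and 3 but far above the blanks. Crem rose 11.6-fold (log2 3.54, SE 0.37, adjusted p = 0.00141). Pde4d, a phosphodiesterase that breaks down cyclic AMP, measured 3.59, 5.23 and 2.78 CPM in the blank and 20.1, 10.8 and 20.3 CPM in the R300 libraries. It rose 4.39-fold (log2 2.13, SE 0.38, adjusted p = 0.0351), again least in R300 2. Ramp3, which turns the calcitonin receptor-like receptor into a receptor for adrenomedullin, measured 3.11, 7.29 and 3.45 CPM in blank 1 to 3 and 32.6, 20.9 and 37.2 CPM in R300 1 to 3. All 3 R300 libraries were above blank 2, the highest blank, and Ramp3 rose 6.48-fold (log2 2.70, SE 0.47, adjusted p = 0.0312). Fosl2, a Fos-like subunit of the AP-1 factor, measured 150.05, 237 and 125 CPM in the blank and 547, 477 and 563 CPM in the R300 libraries, a rise of 3.10-fold (log2 1.63, SE 0.30, adjusted p = 0.0406). The call of Crem held without any 1 library. The call of Ramp3 was lost without blank 1, blank 3, R300 1 or R300 3 (adjusted p 0.122 to 0.155). The call of Fosl2 was lost without any 1 library except blank 2 (adjusted p 0.0543 to 0.214). The call of Pde4d was lost without any 1 library except R300 2 (adjusted p 0.0701 to 0.179).

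Mir132 is a microRNA gene that CREB is known to control, and its primary transcript was read with a neighbour. It measured 0.216, 0.130 and 0.297 CPM in blank 1 to 3 and 1.10, 0.935 and 1.33 CPM in R300 1 to 3, or a mean of 21.3 counts per library, and rose 5.28-fold (log2 2.40, SE 0.45, adjusted p = 0.0406). The gene lies on chromosome 11 at 75173682 to 75173747 (GRCm38.p6, plus strand), inside the long noncoding gene 1700016P03Rik at 75172560 to 75177633. That host measured 0.260, 0.286 and 0.853 CPM in the blank and 6.29, 5.78 and 5.88 CPM in the R300 libraries and rose 12.8-fold (log2 3.68, SE 0.57, adjusted p = 0.0175). Reads of the host's RNA and of the microRNA hairpin cannot be told apart, 74.3% of the host's exonic bases overlap a gene on the opposite strand, and libraries of poly(A) RNA hold no mature microRNA. The call of 1700016P03Rik was lost without blank 1, blank 2, R300 1 or R300 3 (adjusted p 0.0654 to 0.0997). The call of Mir132 was lost without any 1 library except R300 2 (adjusted p 0.0874 to 0.195). Its neighbour on the list, Mir212, was at 0, 0.0260 and 0.334 CPM in blank 1 to 3 and 1.92, 0.865 and 1.27 CPM in R300 1 to 3 without passing (adjusted p = 0.236) and was chosen after its values were seen. The 2 mature forms that this primary transcript encodes are given from RefSeq, with the seed that pairs with targets (bases 2 to 8) in capitals.
mmu-miR-132-5p: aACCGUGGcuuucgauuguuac
mmu-miR-132-3p: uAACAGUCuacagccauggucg

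The promoters of the NR4A genes hold repeated half-sites of the cyclic AMP response element. RefSeq windows of 300 bases (250 before and 50 after a gene's start, build GRCm38.p6) were found for 62 of the 91 risen genes and searched on both strands for the half-site TGACG, which reads CGTCA on the other strand. Nr4a1, Nr4a2 and Nr4a3 each held 4 half-sites. At least 4 occurred in 5 of the 62 risen genes (8.06%), in 0.565% of 10972 tested genes and in 0.255% of 27025 genes with a window. The cut of 4 is the count of the NR4A genes themselves, which are 3 of the 5. These shares therefore describe them and are no separate evidence. At least 1 half-site was found in 28 of the 62 (45.2%), against 34.1% of the tested genes. The 250 bases before each NR4A start are shown because the 3 genes rose together, 5′ to 3′ on the gene's strand with the half-sites in capitals; they were chosen after the counts of half-sites were seen. Nr4a1 lies at chr15:101266596-101266845 (plus strand), Nr4a2 at chr2:57124004-57124253 (minus strand) and Nr4a3 at chr4:48045055-48045304 (plus strand).
Nr4a1: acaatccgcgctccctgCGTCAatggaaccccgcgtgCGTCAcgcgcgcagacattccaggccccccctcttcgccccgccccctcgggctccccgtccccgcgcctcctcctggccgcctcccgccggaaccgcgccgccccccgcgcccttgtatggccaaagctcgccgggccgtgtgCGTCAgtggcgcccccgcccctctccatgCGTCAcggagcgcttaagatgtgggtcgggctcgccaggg
Nr4a2: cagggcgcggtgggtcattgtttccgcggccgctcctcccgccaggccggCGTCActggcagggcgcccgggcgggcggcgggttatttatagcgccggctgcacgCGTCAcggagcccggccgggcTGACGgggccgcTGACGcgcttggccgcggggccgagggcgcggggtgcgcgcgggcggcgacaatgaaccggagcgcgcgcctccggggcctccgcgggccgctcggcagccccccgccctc
Nr4a3: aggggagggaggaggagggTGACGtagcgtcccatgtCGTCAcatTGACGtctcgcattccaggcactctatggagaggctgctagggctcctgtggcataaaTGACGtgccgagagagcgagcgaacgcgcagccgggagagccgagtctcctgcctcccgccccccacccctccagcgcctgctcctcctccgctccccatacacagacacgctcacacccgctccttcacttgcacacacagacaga

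The whole palindrome of the element, TGACGTCA, which contains the half-site on both strands, was found in 5 of the 62 risen genes with a window (8.06%), against 3.36% of the tested genes and 2.03% of all. The 5 were Rad51c, Errfi1, Cdadc1, Cnnm4 and Trp53inp2, none of them on the list of cyclic AMP-induced genes. Of the risen members of that list, Crem, Thbs1 and Mir132 had no window. The windows of Pde4d, Ramp3 and Fosl2 held no half-site. Among risen genes that were at least 2-fold higher the share with the palindrome was 2 of 43 (4.65%). The AP-1 site TGANTCA was found in 5 of 62 (8.06%, against 6.80% of tested genes), and the NR4A site AAAGGTCA in 0 of 62 (against 1.22%). A match of letters in a window is a description and not a measured binding site. The 100 bases before the start are printed for the 5 genes with the palindrome in capitals, at chr11:87404507-87404606 (Rad51c, minus strand), chr4:150854970-150855069 (Errfi1, plus), chr14:59597960-59598059 (Cdadc1, minus), chr1:36471497-36471596 (Cnnm4, plus) and chr2:155381756-155381855 (Trp53inp2, plus).
Rad51c: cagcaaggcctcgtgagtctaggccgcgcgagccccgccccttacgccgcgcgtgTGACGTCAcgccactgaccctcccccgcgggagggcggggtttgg
Errfi1: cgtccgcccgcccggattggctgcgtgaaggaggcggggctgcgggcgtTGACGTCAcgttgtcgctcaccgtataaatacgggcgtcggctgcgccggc
Cdadc1: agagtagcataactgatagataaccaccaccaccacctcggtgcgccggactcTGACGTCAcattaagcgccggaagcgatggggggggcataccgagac
Cnnm4: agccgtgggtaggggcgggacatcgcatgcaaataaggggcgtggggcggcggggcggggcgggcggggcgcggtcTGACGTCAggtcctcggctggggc
Trp53inp2: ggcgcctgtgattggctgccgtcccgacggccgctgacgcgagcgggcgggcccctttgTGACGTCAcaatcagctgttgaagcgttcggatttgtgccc

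The element begins 45, 51, 47, 24 and 41 bases before the start of these 5 genes, in the order printed. Errfi1, a feedback inhibitor of the epidermal growth factor receptor, measured 25.6, 32.4 and 20.5 CPM in the blank and 116, 80.7 and 128 CPM in the R300 libraries and rose 4.12-fold (log2 2.04, SE 0.37, adjusted p = 0.0366). Rad51c, a protein of homologous recombination repair, measured 0.173, 0.234 and 0.185 CPM in blank 1 to 3 and 0.705, 1.14 and 0.848 CPM in R300 1 to 3, a mean of 17.3 counts per library, and rose 4.41-fold (log2 2.14, SE 0.36, adjusted p = 0.0260). Cdadc1, a cytidine deaminase, rose 1.73-fold, Cnnm4, a magnesium transport protein, 1.58-fold and Trp53inp2, an autophagy and nuclear receptor cofactor, 1.41-fold. The call of Cnnm4 was lost without any 1 library except blank 2 (adjusted p 0.0893 to 0.232). The call of Errfi1 was lost without any 1 library except R300 2 (adjusted p 0.0975 to 0.179). The calls of Rad51c, Cdadc1 and Trp53inp2 were lost without each of the 6 libraries in turn (adjusted p 0.0543 to 0.198). Of 25 tested genes of MAP kinase feedback, Errfi1 was the 1 that edgeR called (0.623% of all genes were called), and DESeq2 called 2, both higher.

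Of 36 tested immediate early genes, 5 rose and none fell (0.55% of all genes rose): the 3 NR4A genes, Nfil3 and Fosl2. All but Nfil3 are also on the cyclic AMP list. The median log2 fold change of the immediate early list was 0.26 (DESeq2 called 8 higher and 1 lower). Nfil3, a basic leucine zipper repressor that also acts in the circadian clock, measured 22.2, 29.4 and 17.4 CPM in the blank and 105, 98.9 and 114 CPM in the R300 libraries. Each R300 library was over 3 times the highest blank library, and it rose 4.61-fold (log2 2.21, SE 0.27, adjusted p = 0.00387). The call of Nfil3 held without any 1 library. Fos was at 104, 244 and 679 CPM in blank 1 to 3 and 319, 472 and 307 CPM in R300 1 to 3, so that the blank libraries spanned the R300 libraries (adjusted p = 0.993). Egr1 was at 35.6, 194 and 530.4 CPM in the blank and 57.5, 341 and 63.8 CPM in the R300 libraries, with blank 3 and R300 2 high (adjusted p = 0.941). Fos and Egr1 were chosen after their values were seen.

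**Figure D4:**
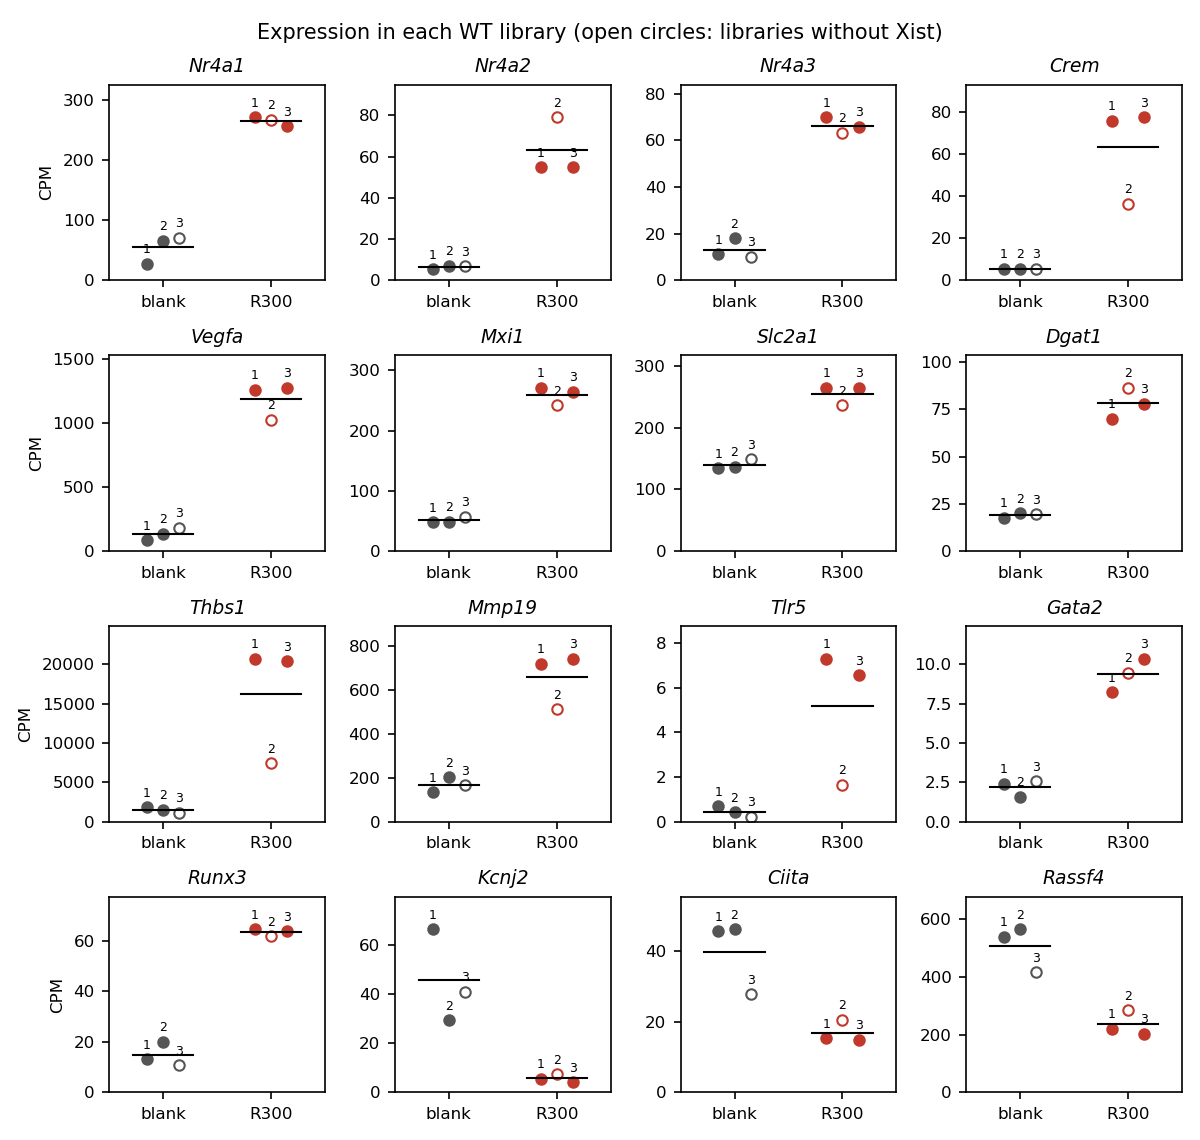
CPM (y axes, each from 0) of 16 genes in the 3 blank and 3 R300 WT libraries, 1 point per library with its number, a bar at the mean, and open circles for the libraries without Xist. No R300 point overlaps a blank point, and R300 2 lies below the others for Crem, Thbs1 and Tlr5 but not for Nr4a2 or Dgat1.

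Of 39 tested genes of glycolysis and hypoxia, 3 rose and none fell (0.55% of all genes rose): Vegfa, Mxi1 and Slc2a1. Vegfa is also on the cyclic AMP list. The median log2 fold change of the list was 0.12, and DESeq2 called 5 higher. Vegfa, the main growth factor of endothelial cells, measured 83.2, 135 and 182 CPM in blank 1 to 3 and 1261, 1027 and 1276 CPM in R300 1 to 3. The lowest R300 library held several times the level of the highest blank library, a rise of 8.91-fold (log2 3.15, SE 0.32, adjusted p = 0.00141). Mxi1, a repressor of the MYC network that hypoxia induces, measured 47.7, 48.7 and 57.2 CPM in the blank and 271, 243 and 265 CPM in the R300 libraries. Neither group spread widely, and Mxi1 rose 5.07-fold (log2 2.34, SE 0.16, adjusted p = 0.000103). Slc2a1, the glucose transporter GLUT1, measured 134, 137 and 149 CPM in blank 1 to 3 and 264, 236 and 264 CPM in R300 1 to 3 and rose 1.83-fold (log2 0.87, SE 0.10, adjusted p = 0.00177). The calls of Vegfa, Mxi1 and Slc2a1 held without any 1 library. No glycolytic enzyme was called with edgeR, DESeq2 or the batch term.

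From here called genes, some of which also stand on a list, are grouped by known role after the calls were seen. Such groups were not tested. Among those of lipid and amino acid metabolism, Dgat1, which completes the synthesis of triglycerides, measured 17.6, 19.998 and 19.6 CPM in the blank and 69.96, 86.4 and 78.1 CPM in the R300 libraries. The 3 blank libraries lay within 3 CPM of each other, and Dgat1 rose 4.10-fold (log2 2.03, SE 0.14, adjusted p = 0.000103). Got1, the cytosolic aspartate aminotransferase, measured 45.9, 51.7 and 51.2 CPM in blank 1 to 3 and 186, 145 and 181 CPM in R300 1 to 3 and rose 3.44-fold (log2 1.78, SE 0.15, adjusted p = 0.000317). Gcsh, a part of the glycine cleavage system of mitochondria, rose 2.95-fold (adjusted p = 0.00141), and Auh, a hydratase of leucine breakdown that also binds RNA, 2.17-fold (adjusted p = 0.00144). The monocarboxylate carrier Slc16a1 rose 1.74-fold, the amino acid carrier Slc38a1 1.43-fold, the peptide carrier Slc15a2 3.32-fold and the fatty acid receptor Ppard 1.52-fold. Impdh1, the rate-limiting enzyme of guanine nucleotide synthesis, rose 1.94-fold, and Por, the reductase that feeds electrons to cytochromes P450, 1.64-fold. Of 26 tested genes of lipid efflux and storage, 2 rose, Dgat1 and Ppard (0.55% of all genes rose). The calls of Dgat1, Got1, Gcsh and Auh held without any 1 library. The calls of Slc16a1, Slc38a1, Impdh1 and Por were lost without any 1 library except R300 2 (adjusted p 0.0946 to 0.264). The calls of Slc15a2 and Ppard were lost without each of the 6 libraries in turn (adjusted p 0.0641 to 0.173).

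Among called genes of glycan synthesis, B3gnt5, the enzyme that starts lacto-series glycolipids, measured 2.72, 9.37 and 6.64 CPM in the blank and 53.8, 38.6 and 52.4 CPM in the R300 libraries. Blank 1 was the lowest and blank 2 the highest of the blanks, all under the R300 libraries, and B3gnt5 rose 7.65-fold (log2 2.93, SE 0.38, adjusted p = 0.00502). B4galt5, a galactosyltransferase of lactosylceramide, rose 1.84-fold and Nus1, needed for the dolichol that carries N-glycans, 1.84-fold. Cnnm2, a magnesium transport protein like Cnnm4, measured 5.23, 5.73 and 6.56 CPM in blank 1 to 3 and 38.3, 18.7 and 35.4 CPM in R300 1 to 3 and rose 5.27-fold (log2 2.40, SE 0.31, adjusted p = 0.00502). In the list of NRF2, heme and iron genes, 2 of 32 rose (0.55% of all genes did). They were Srxn1, which repairs peroxiredoxins, 1.70-fold and Gclc, the catalytic subunit of the first step of glutathione synthesis, 1.65-fold. The selenoprotein gene Selenon rose 1.48-fold and Isca1, of iron-sulfur cluster assembly, 1.47-fold. The calls of B3gnt5 and Cnnm2 held without any 1 library. The call of B4galt5 was lost without any 1 library except blank 3 (adjusted p 0.0720 to 0.188). The calls of Nus1, Srxn1, Gclc and Selenon were lost without any 1 library except R300 2 (adjusted p 0.0565 to 0.235). The call of Isca1 was lost without each of the 6 libraries in turn (adjusted p 0.0593 to 0.214).

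Of 37 tested genes of adhesion and matrix, 3 rose and none fell (0.55% of all genes rose). Their median log2 fold change was 0.07, with 22 members above 0. Of the 3 that rose, Thbs1 is also on the cyclic AMP list. Thbs1, whose product thrombospondin 1 binds CD36, CD47 and integrins, measured 1802, 1511 and 1123 CPM in the blank and 20706, 7452 and 20404 CPM in the R300 libraries. R300 2 held less than R300 1 and 3 and more than any blank library, and Thbs1 rose 10.9-fold (log2 3.45, SE 0.56, adjusted p = 0.0227). Thrombospondin 1 is also a protein of platelet granules, and of the other 14 tested platelet markers none was called (1 had an unadjusted p under 0.05, and DESeq2 called none). Their summed level, with 21 genes counted, was 182 to 248 CPM in blank and 242 to 264 CPM in R300 libraries, and Pf4, the marker chemokine of platelets, was at 77.2, 80.5 and 41.01 CPM in blank 1 to 3 and 93.9, 40.2 and 90.2 CPM in R300 1 to 3. Mmp19, a metalloproteinase that cleaves basement membrane proteins, measured 134, 203 and 167 CPM in the blank and 719.8, 514 and 744 CPM in the R300 libraries, with R300 2 the lowest R300 library and no overlap, and rose 3.92-fold (log2 1.97, SE 0.22, adjusted p = 0.00177). Tgm2, the tissue transglutaminase that crosslinks matrix and aids uptake of dying cells, measured 495, 516 and 452 CPM in blank 1 to 3 and 1252, 897 and 1265 CPM in R300 1 to 3 and rose 2.33-fold (log2 1.22, SE 0.20, adjusted p = 0.0250). For Mmp19 28.3% and for Tgm2 21.8% of exonic bases overlap a gene on the opposite strand. The call of Mmp19 held without any 1 library. The calls of Thbs1 and Tgm2 were lost without any 1 library except R300 2 (adjusted p 0.0851 to 0.140).

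Among other called genes of the cell surface, Lrrc32, which holds latent TGF-β at the cell surface, measured 11.1, 10.3 and 8.75 CPM in the blank and 72.3, 45.3 and 64.8 CPM in the R300 libraries and rose 6.05-fold (log2 2.60, SE 0.39, adjusted p = 0.0149). Thbd, the thrombin receptor thrombomodulin that turns thrombin towards activation of protein C, measured 26.7, 16.4 and 17.6 CPM in blank 1 to 3 and 94.6, 50.7 and 94.004 CPM in R300 1 to 3 and rose 3.95-fold (log2 1.98, SE 0.34, adjusted p = 0.0291). The membrane protease Adam8 rose 2.54-fold, the semaphorin Sema4b 2.03-fold and the Notch ligand Jag2 3.24-fold. Inside the membrane, Cytip, a scaffold that binds cytohesins and weakens integrin adhesion, measured 39.5, 90.4 and 60.9 CPM in the blank and 359, 412 and 346 CPM in the R300 libraries and rose 5.85-fold (log2 2.55, SE 0.27, adjusted p = 0.00144). Cyth1, the cytohesin that Cytip binds, measured 143, 142 and 118 CPM in blank 1 to 3 and 521, 354 and 497 CPM in R300 1 to 3 and rose 3.40-fold (log2 1.77, SE 0.19, adjusted p = 0.00144). The focal adhesion adaptor Pxn rose 1.74-fold and Specc1l, which links actin and microtubules, 1.78-fold. The calls of Sema4b, Cytip and Cyth1 held without any 1 library. The call of Adam8 was lost without blank 1, blank 2, R300 1 or R300 3 (adjusted p 0.0961 to 0.112). The calls of Pxn and Specc1l were lost without blank 1, blank 3, R300 1 or R300 3 (adjusted p 0.0532 to 0.0946). The calls of Lrrc32 and Thbd were lost without any 1 library except R300 2 (adjusted p 0.0654 to 0.144). The call of Jag2 was lost without each of the 6 libraries in turn (adjusted p 0.0516 to 0.164).

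Of 29 tested pattern receptors, 2 rose (0.55% of all genes did): Tlr5, the receptor of bacterial flagellin, and Clec7a, the receptor dectin-1 of fungal glucans. Tlr5 measured 0.692, 0.417 and 0.222 CPM in the blank and 7.31, 1.66 and 6.57 CPM in the R300 libraries and rose 11.8-fold (log2 3.56, SE 0.62, adjusted p = 0.0334), from a level close to 0 and least in R300 2. Clec7a measured 507, 484 and 615 CPM in blank 1 to 3 and 1229, 963 and 1191 CPM in R300 1 to 3 and rose 2.11-fold (log2 1.07, SE 0.19, adjusted p = 0.0351). Of 32 tested chemokines and receptors, Ccr7, which steers cells to lymph nodes, was the 1 that edgeR called (9.91, 17.3 and 11.1 CPM in the blank and 47.1, 31.1 and 47.3 CPM in the R300 libraries, 3.26-fold), and DESeq2 called 2 higher and 1 lower. Havcr2, the inhibitory receptor TIM-3, rose 2.57-fold (adjusted p = 0.00676), Dcstamp, needed for the fusion of macrophages, 3.29-fold, and the cytokine Clcf1 2.08-fold. Gab1, a docking protein under growth factor receptors, rose 2.85-fold. The call of Havcr2 was lost without blank 1 (adjusted p 0.0544). The calls of Clcf1 and Gab1 were lost without blank 1, R300 1 or R300 3 (adjusted p 0.0514 to 0.0820). The call of Ccr7 was lost without blank 1, blank 3, R300 1 or R300 3 (adjusted p 0.133 to 0.174). The call of Dcstamp was lost without blank 1, blank 2, R300 1 or R300 3 (adjusted p 0.0878 to 0.108). The calls of Tlr5 and Clec7a were lost without any 1 library except R300 2 (adjusted p 0.0693 to 0.188).

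Among called regulators of transcription, Runx3, a Runt domain factor of myeloid and T cells, measured 13.1, 20.1 and 10.7 CPM in blank 1 to 3 and 64.6, 61.9 and 63.7 CPM in R300 1 to 3 and rose 4.32-fold (log2 2.11, SE 0.22, adjusted p = 0.00141). Gata2, a factor of blood progenitors and mast cells, measured 2.42, 1.59 and 2.56 CPM in the blank and 8.24, 9.45 and 10.4 CPM in the R300 libraries and rose 4.29-fold (log2 2.10, SE 0.22, adjusted p = 0.00141). Gata2 is also a marker on the list of eosinophil and mast cell genes, whose summed level was higher in each R300 library (69.1 to 88.7 CPM) than in each blank library (22.4 to 63.5 CPM); its part in the rise was not tested. Ahr, the aryl hydrocarbon receptor, measured 16.3, 24.7 and 23.9 CPM in blank 1 to 3 and 79.3, 87.1 and 78.7 CPM in R300 1 to 3 and rose 3.77-fold (log2 1.91, SE 0.30, adjusted p = 0.0180). Hdac5, a histone deacetylase that phosphorylation moves out of the nucleus, measured 74.05, 77.3 and 87.4 CPM in the blank and 242, 279 and 252 CPM in the R300 libraries, with both groups narrow, and rose 3.24-fold (log2 1.69, SE 0.13, adjusted p = 0.000181). The antiproliferative gene Tob1 rose 2.30-fold, the zinc finger genes Zfp667 and Hic1 4.45-fold and 2.52-fold, and Bend4 2.71-fold. Lmnb1, of the nuclear lamina, rose 4.01-fold and Lemd2, of the inner nuclear membrane, 1.36-fold. The calls of Runx3, Gata2, Hdac5, Tob1 and Zfp667 held without any 1 library. The call of Hic1 was lost without blank 1, blank 2, blank 3 or R300 3 (adjusted p 0.0538 to 0.0877). The calls of Ahr, Bend4 and Lmnb1 were lost without any 1 library except R300 2 (adjusted p 0.0665 to 0.214). The call of Lemd2 was lost without each of the 6 libraries in turn (adjusted p 0.0761 to 0.198).

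Among called genes of RNA handling, Isy1, a part of the spliceosome, measured 11.8, 12.8 and 13.1 CPM in blank 1 to 3 and 42.2, 44.4 and 43.5 CPM in R300 1 to 3 and rose 3.46-fold (log2 1.79, SE 0.14, adjusted p = 0.000174). Nufip1, an RNA-binding protein of small nucleolar particle assembly, measured 17.04, 24.9 and 24.3 CPM in the blank and 80.7, 83.5 and 75.3 CPM in the R300 libraries, a rise of 3.61-fold (log2 1.85, SE 0.17, adjusted p = 0.000686). Rrp1b, of the nucleolus, was highest in R300 2 (19.8, 16.7 and 17.4 CPM in blank 1 to 3 and 58.4, 94.5 and 56.4 CPM in R300 1 to 3) and rose 3.89-fold. Gpalpp1 rose 3.11-fold, Paf1, of the polymerase-associated complex, 1.51-fold, and Lsm12 1.422-fold. Of 24 tested heat shock genes, Hsph1, a partner of HSP70, was the 1 that edgeR called (0.623% of all genes were called). It rose 1.63-fold, and DESeq2 called 2 of the list higher. The calls of Isy1, Nufip1, Rrp1b and Gpalpp1 held without any 1 library. The call of Paf1 was lost without blank 1, R300 1 or R300 3 (adjusted p 0.0514 to 0.0600). The call of Hsph1 was lost without any 1 library except blank 3 (adjusted p 0.0543 to 0.147). The call of Lsm12 was lost without each of the 6 libraries in turn (adjusted p 0.0516 to 0.182).

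Other risen genes belonged to none of the lists. Cbarp, which dampens voltage-gated calcium channels, measured 3.29, 2.76 and 1.52 CPM in the blank and 16.9, 22.99 and 18.99 CPM in the R300 libraries and rose 7.77-fold (log2 2.96, SE 0.30, adjusted p = 0.00141). Rgcc, a regulator of the cell cycle that complement induces, rose 3.20-fold, the arrestin-like Arrdc3 2.86-fold, the kinase Nuak2 2.68-fold and Ccno, a cyclin of multiciliated cells, 4.26-fold. Lzts1, a leucine zipper tumour suppressor, had 0 counts in the 3 blank libraries and 10, 5 and 14 counts in R300 1 to 3 (adjusted p = 0.0356). Set against 3 counts over the blank group, it was at least 8.79-fold higher. Further risen genes were AI839979, Tamalin, Apbb3, Dnah2, Tmem132a, Fam117b, Gorab, Gpn3, Ttpal and Zfp516, at 1.49-fold (Zfp516) to 4.32-fold (Tamalin). The calls of Cbarp and Rgcc held without any 1 library. The calls of Nuak2 and Ccno were lost without blank 1, blank 2, R300 1 or R300 3 (adjusted p 0.0576 to 0.155). The calls of Arrdc3 and Lzts1 were lost without any 1 library except R300 2 (adjusted p 0.0712 to 0.149). The call of Gorab was lost without blank 1, R300 1 or R300 3 (adjusted p 0.0693 to 0.0717). The calls of Dnah2 and Gpn3 were lost without blank 1, blank 2, R300 1 or R300 3 (adjusted p 0.0654 to 0.103). The call of Tamalin was lost without blank 1, blank 2, blank 3 or R300 1 (adjusted p 0.0536 to 0.108). The call of Tmem132a was lost without any 1 library except blank 3 (adjusted p 0.0706 to 0.179). The calls of AI839979, Apbb3, Fam117b and Ttpal were lost without any 1 library except R300 2 (adjusted p 0.0539 to 0.215). The calls of Zfp516 and Stx12 were lost without each of the 6 libraries in turn (adjusted p 0.0551 to 0.222).

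The 12 genes that fell (0.0725% of all genes tested) included a potassium channel and the master regulator of MHC class II. Kcnj2, the inward rectifier Kir2.1 that sets the resting potential, measured 66.4, 29.3 and 40.9 CPM in blank 1 to 3 and 5.56, 7.48 and 4.06 CPM in R300 1 to 3. Each R300 library was far below the lowest blank library, and the channel gene fell to 0.125 of its level in blank cells (log2 -2.999, SE 0.37, adjusted p = 0.00387). Of 26 tested ion channel genes edgeR called no other, and DESeq2 called 1 more, higher. Ciita, which switches on MHC class II genes, measured 45.8, 46.2 and 27.8 CPM in the blank and 15.4, 20.6 and 14.9 CPM in the R300 libraries. Blank 3 was the lowest blank library, still above R300 2, and Ciita fell to 0.425 (log2 -1.24, SE 0.20, adjusted p = 0.0229). Among 16 genes of MHC class II presentation and costimulation edgeR called no other, DESeq2 called 2 higher and 2 lower, and the batch term 2 higher and 1 lower. Their median log2 fold change was -0.20 and turned to 0.11 without blank 2. Rassf4, a Ras-association protein, measured 538, 564 and 415 CPM in blank 1 to 3 and 219.6, 284 and 203 CPM in R300 1 to 3 and fell to 0.466 (log2 -1.10, SE 0.19, adjusted p = 0.0344). The call of Kcnj2 held without any 1 library. The calls of Ciita and Rassf4 were lost without blank 1, blank 2, R300 1 or R300 3 (adjusted p 0.0892 to 0.192).

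The other falls were smaller. Tifa, an adaptor that binds TRAF6 on the way to NF-κB, measured 77.3, 61.04 and 64.5 CPM in the blank and 33.8, 39.1 and 33.5 CPM in the R300 libraries. It fell to 0.525 (adjusted p = 0.0406). Tifa was the 1 that edgeR called among 24 tested genes of NF-κB and its feedback, of which DESeq2 called 2, both lower. Plekho2, a pleckstrin homology protein, measured 685, 622 and 677 CPM in blank 1 to 3 and 386, 465 and 382 CPM in R300 1 to 3 and fell to 0.621 (adjusted p = 0.0172). Akap10, an anchor for protein kinase A at mitochondria, measured 60.5, 51.2 and 51.6 CPM in the blank and 31.1, 33.9 and 30.9 CPM in the R300 libraries, with no overlap, and fell to 0.587 (adjusted p = 0.0122). Il20rb, a chain of the interleukin 20 receptors, fell to 0.489 and Ypel2 to 0.528, while Dse measured 96.9, 97.3 and 93.1 CPM in blank 1 to 3 and 70.3, 73.1 and 70.4 CPM in R300 1 to 3. The noncoding or predicted genes Gm15568, Gm43197 and A530017D24Rik fell to 0.204, 0.481 and 0.541. The call of Akap10 was lost without blank 1, R300 1 or R300 3 (adjusted p 0.0718 to 0.0840). The call of Plekho2 was lost without blank 1, blank 3, R300 1 or R300 3 (adjusted p 0.0693 to 0.130). The call of Ypel2 was lost without any 1 library except blank 1 (adjusted p 0.0543 to 0.246). The call of Gm43197 was lost without any 1 library except R300 2 (adjusted p 0.0742 to 0.186). The calls of Tifa, Il20rb, Dse, Gm15568 and A530017D24Rik were lost without each of the 6 libraries in turn (adjusted p 0.0543 to 0.264).

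For lists of uptake and degradation, with 0.623% of all genes called and 8.72% at an unadjusted p under 0.05, a count of 0 in a list of this size says little about its members. Of 39 tested genes of Fc receptor phagocytosis edgeR called 0 (9 had an unadjusted p under 0.05, and DESeq2 called 1 higher and 1 lower), with a median log2 fold change of -0.05. The Src family kinase Fgr, its lowest p, measured 309.8, 350.4 and 269.99 CPM in the blank and 219, 239 and 211 CPM in the R300 libraries (log2 -0.47, SE 0.12, adjusted p = 0.145), and Arpc3, of the actin-nucleating Arp2/3 complex, 216, 229 and 219.6 CPM in blank 1 to 3 and 347, 278 and 307 CPM in R300 1 to 3 (log2 0.49, SE 0.13, adjusted p = 0.170). Neither passed, although the groups did not overlap for 10 of the 39 (12.8% of all genes tested did not overlap). Of 45 lysosomal genes edgeR called 0 (2 unadjusted, and 0 with DESeq2), with a median of 0.05 that turned to -0.06 without blank 2 and -0.05 without R300 2. Of 31 genes of the V-ATPase and TFEB 0 were called (2 unadjusted, and 1 lower with DESeq2), and of 33 autophagy genes 0 (0 unadjusted, and 0 with DESeq2). Among 29 scavenger and apoptotic cell receptors and their partners 2 rose, the carriers Slc2a1 and Slc16a1 named above, and no receptor.

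**Figure D5:**
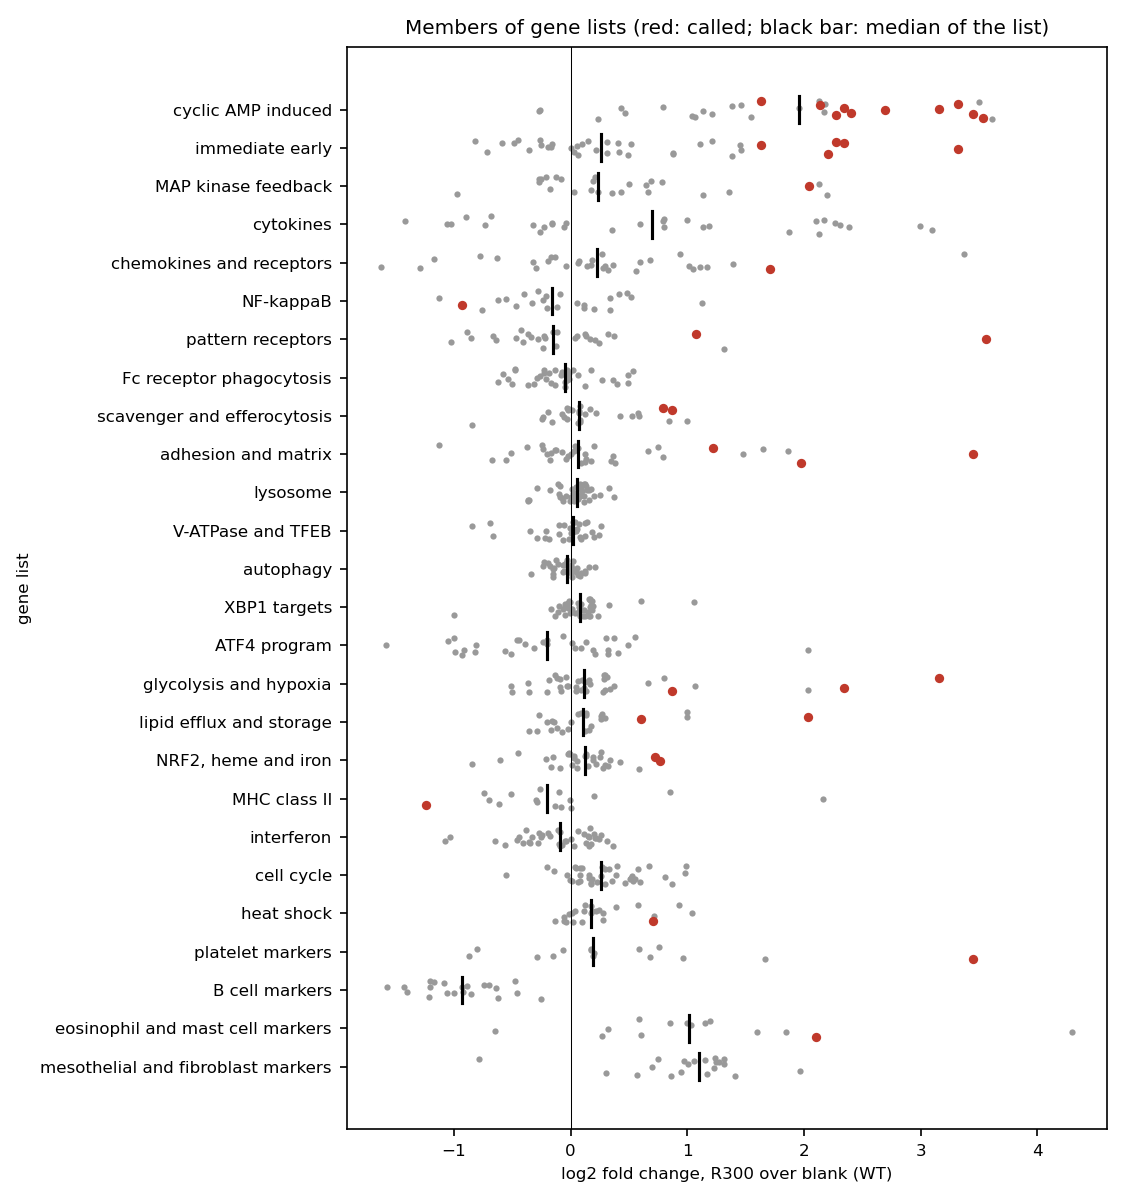
Fitted log2 fold changes of R300 over blank (x axis) for the tested members of gene lists (y axis), 1 point per gene, called genes in red and a black bar at each list's median. The list of cyclic AMP-induced genes has its median at 1.96, while the lists of lysosome, autophagy and Fc receptor phagocytosis lie around 0 with no called member.

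Lists of the unfolded protein response held no call of edgeR, near the 0.623% of all genes, and some of DESeq2. Over all genes 8.72% had an unadjusted p under 0.05. Of 42 tested XBP1 targets edgeR called 0 (3 unadjusted, and 1 higher with DESeq2; median log2 0.08), of 17 ATF6 chaperones 0 (1 unadjusted, 0 with DESeq2) and of 32 ATF4 program genes 0 (8 unadjusted, 1 higher and 1 lower with DESeq2). Ern1 itself was higher in each R300 library (113, 117 and 94.1 CPM in the blank and 204, 138 and 205 CPM in the R300 libraries) without passing (log2 0.75, SE 0.18, adjusted p = 0.136), and passed with DESeq2 (adjusted p = 0.0159) and with the batch term (0.000652). Xbp1, whose mRNA IRE1α splices, was at 133, 111 and 123 CPM in blank 1 to 3 and 139, 127 and 139 CPM in R300 1 to 3 (adjusted p = 0.889). Gfpt1, which feeds the hexosamine pathway and is an XBP1 target, was at 53.5, 75.5 and 56.2 CPM in the blank and 144, 95.7 and 146 CPM in the R300 libraries (adjusted p = 0.0915), 0.0111 with the batch term. Nr1d1, the circadian repressor in the series title, was at 9.47, 10.9 and 7.30 CPM in blank 1 to 3 and 7.28, 5.12 and 6.42 CPM in R300 1 to 3, all R300 libraries under the blanks, without passing (log2 -0.56, SE 0.20, adjusted p = 0.420, and 0.0298 with the batch term). Of 21 clock genes Nfil3 was the 1 called, also with DESeq2. In a list of 18 genes tied to IRE1-dependent decay, which includes Ern1, Xbp1 and Nr1d1 themselves, edgeR called 0 (6 unadjusted), and DESeq2 called Ern1 and 1 other, both higher.

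The cytokine list, which does not hold Clcf1, had no call in the fit of the 12 libraries. With the batch term, whose limit is given above, 7 of its 30 tested members passed, where 2.1% of all genes did. In that list 12 members had an unadjusted p under 0.05 (8.72% of all genes did), and DESeq2 called 4 higher and 1 lower. Its median log2 fold change was 0.69. Osm, oncostatin M, was at 12.1, 27.5 and 25.7 CPM in the blank and 229, 81.9 and 211 CPM in the R300 libraries (adjusted p = 0.0790, and 0.0360 with the batch term). Il1b was at 45.98, 163 and 34.9 CPM in blank 1 to 3 and 472, 221 and 481 CPM in R300 1 to 3, so that R300 2 lay above each blank library but below the other R300 libraries (adjusted p = 0.390, 0.0428 with the batch term). Ptgs2, the cyclooxygenase of prostaglandin synthesis, was at 42.8, 49.9 and 16.4 CPM in the blank and 201, 117 and 225 CPM in the R300 libraries (adjusted p = 0.315, 0.0403 with the batch term). Il6 was at 5.23, 6.72 and 1.30 CPM in blank 1 to 3 and 25.4, 4.02 and 27.9 CPM in R300 1 to 3, where R300 2 and the blanks overlapped (adjusted p = 0.648, 0.00317). Hgf, hepatocyte growth factor, was at 12.1, 10.1 and 18.2 CPM in the blank and 24.3, 30.98 and 25.5 CPM in the R300 libraries (adjusted p = 0.211, 0.00141), and Tnf, with each R300 library below each blank, at 148, 239 and 157 CPM in blank 1 to 3 and 67.2, 80.2 and 55.7 CPM in R300 1 to 3 (adjusted p = 0.333, 0.206). In all, the batch term added 244 genes to the 103, 184 higher and 60 lower, among them the costimulatory genes Cd80 (4.48-fold, 0.0131) and Cd86 (1.80-fold, 0.00169) and the chemokine receptor Ccr1 (2.02-fold, 0.00443). Il1b, Ptgs2, Il6 and Tnf were chosen after their values were seen.

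Markers of other cells differed between libraries, and their part in the results was not tested. All 21 tested B cell markers lay below 0 with R300 (median log2 -0.93), edgeR called 0 (6 unadjusted, 0 with DESeq2), and their summed level was 113 to 401 CPM in blank and 113 to 132 CPM in R300 libraries. Blank 2 held the most, with Ighm at 38.8, 151 and 38.7 CPM in the blank and 38.96, 35.1 and 49.6 CPM in the R300 libraries. Of 20 tested mesothelial and fibroblast markers 19 lay above 0 (median 1.10, and 0.09 between R300 2 and blank 3). EdgeR called 0 (1 unadjusted, 0 with DESeq2), and the sum was 196 to 826 CPM in blank and 242 to 1733 CPM in R300. Col1a1 was at 166, 30.3 and 34.04 CPM in blank 1 to 3 and 171, 39.4 and 401 CPM in R300 1 to 3, high in blank 1 and R300 1 and highest in R300 3. Of 14 tested eosinophil and mast cell markers 13 lay above 0 (median 1.01, and 0.60 between R300 2 and blank 3). The groups did not overlap for 7 of them, against 12.8% of all genes tested. EdgeR called Gata2, and 9 of the 14 had an unadjusted p under 0.05 (8.72% of all genes did). The batch term called 2 higher and DESeq2 called 3 higher: Gata2 and the mast cell protease genes Mcpt4 and Tpsb2. The sum was higher in every R300 library than in any blank library, at the values given with Gata2. Hdc, which makes histamine, was at 1.95, 12.2 and 2.78 CPM in the blank and 21.7, 14.8 and 25.3 CPM in the R300 libraries, while the eosinophil genes Epx and Prg2 and the mast cell receptor genes Fcer1a and Ms4a2 did not pass the filter on low counts. In bulk RNA, fewer cells of a type and less RNA per cell cannot be told apart.

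Macrophages of the other genotype gave a separate set of 6 libraries in which to read the same genes. In KO cells 138 genes were called with R300 (0.834% of those tested), and 89 of the 103 WT genes were among them. All 103 had the same sign in KO, which was not counted over all genes. KO R300 1 and 2 were nearly alike, with a median chi-square of 1.53 against 6.22 and 6.53 for the other KO R300 pairs. Nr4a2 had a log2 fold change of 3.32 in WT and 3.80 in KO, Crem 3.54 and 3.86, Vegfa 3.15 and 3.51, Dgat1 2.03 and 2.08, and Kcnj2 -2.999 and -3.41. The difference between the genotypes' responses was called for 0 genes with edgeR (95 had an unadjusted p under 0.05, 3 of them among the 103: Lzts1, Rad51c and Gm15568), and the smallest adjusted p was 1.00. DESeq2 also called 0, as did each of the other alternatives run for it. A difference that is not called is not shown to be absent.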

How the data were processed

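RNA selected on oligo(dT) was sequenced, and the authors deposited raw read counts for 35050 rows named by gene symbol. The submitters' processing notes name the mm10 genome, the aligner HISAT2 (version 2), the counter featureCounts (2.0.3), the trimmer fastp (0.23.4), FastQC (0.12.1) and DESeq2 (1.42.0). How the counting treated strand is not given in the sources used here, so reads of genes that overlap on opposite strands cannot be told apart. Rows without a symbol numbered 102 (0.0251% to 0.0293% of the counts of a WT library) and were left out.

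Counts were tested with edgeR 4.0.16 in R 4.3.3 (TMM scaling, filterByExpr by group, robust quasi-likelihood fit). All 12 libraries entered with 1 mean per group, and the contrast was R300 WT minus blank WT over 16546 genes, with Benjamini-Hochberg adjustment over all of them. The common biological coefficient of variation was 0.267. CPM are TMM-scaled and fold changes are fitted. SE is the size of the log2 fold change over the square root of its F statistic, so it restates the test. The fit was checked on simulated counts with known changes. These were drawn independently for each library, so the check did not cover nearly alike libraries or the split by Xist. The alternatives were DESeq2 1.42.0, relative log expression or library totals as scaling, no filter on low counts, the WT libraries alone, a replicate block, a minimum fold of 2, a batch term or restriction by Xist, and each WT library left out.

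The members and the 48 gene lists were chosen with earlier results of these data known. Every called gene may be named. Values per library are for Ern1, Xbp1 and Nr1d1, for the 15 largest rises and 12 largest falls among called genes whose mean count reached 20, with groups that did not overlap and a symbol that is no clone or predicted name, for called members and the 3 lowest p of each list, and for the most abundant members of cell type lists. Values per library of other called genes, such as Hdac5, were added after seeing them. Positions are from GENCODE M21 on GRCm38, and promoter and microRNA sequences from RefSeq on GRCm38.p6. Position was found for 105 of the 106 genes called or named by the rule. The values of 2 called genes and of 1 gene that was not called are not reported here.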

Additional observations from a re-analysis of the deposited data

How the results depend on the processing

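The number of called genes was 103, with 99 under relative log expression scaling, 80 with library totals and 97 without the filter on low counts. It was 41 in the 6 WT libraries alone, 17 for a minimum fold of 2, 347 with the batch term, 242 in the libraries with Xist and 363 with DESeq2, and 32 to 135 when 1 library was left out. The cause of these changes was not tested. With the replicate number as a block 3 genes were called. Correlations of the deviations of same-numbered libraries were 0.385, 0.0665 and -0.468, so the numbers do not pair the samples, and blank 3 correlated best with R300 2 (0.589). Of the 103 calls, 4 were lost with relative log expression scaling, 25 with library totals, 20 without the filter, 27 in the libraries with Xist, 86 with a minimum fold of 2, and 22 to 71 without 1 library. No called gene changed direction in these settings. Without blank 1 the log2 fold change of Fos was -0.35 and without blank 3 1.07, and that of Egr1 was -2.06 without R300 2 and 0.43 without blank 3, none past the threshold. The other scalings moved the median of all genes by -0.0078 and -0.0434 on the log2 scale. The number of lists with a median above 0 was 29 of 48 and 23 to 31 in the alternatives, and the lists that turned mostly had medians near 0. Among those farther from 0, the lists of NF-κB, MHC class II, mitochondrial genes, monocytes, erythroid cells and neutrophils turned without blank 2 and that of chemokines without blank 3 (0.23 to -0.04). The neutrophil list also turned with the block (-0.32 to 0.02), and that of interferon genes went from -0.09 to 0.30 without blank 3 and 0.13 without R300 3. The difference between the genotypes' responses had 0 calls in the alternatives run for it. With 3 libraries a group, of which R300 1 and 3 were nearly alike, the fold changes of weakly expressed genes such as Lzts1, Mir132 and Rad51c rest on few counts.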
